A study of Mus musculus with 8 samples.

Results

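DNA methylation at 10 negative regulators of the Wnt pathway, Dact1, Dact2, Dact3, Nkd1, Nkd2, Cxxc4, Axin2, Apcdd1, Notum and Shisa3, was followed in mouse proximal colon organoids in which BrafV600E was switched on and in control organoids kept in long culture. They are 10 of the 21896 protein-coding genes in the RefSeq table of GRCm38.p6. The genes were chosen by name, with earlier results of these data known. Every 200 bp tile overlapping a gene's RefSeq span or the 2 kb on either side was taken from the authors' deposited tables. In all, the members held 50 distinct tiles with 74 listed differences, 48 of them gains and 26 losses of methylation. The assay was reduced representation bisulfite sequencing: fragments rich in CpG are released by a restriction enzyme and sequenced after bisulfite has converted unmethylated cytosines.

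All 8 libraries came from organoids of mice heterozygous for a Cre-activable BrafV600E allele, so the controls carried the silent allele too. The oncogene is a constitutively active form of the BRAF kinase. In the first group, lentiviral Cre had activated BrafV600E and the organoids had been selected in Base medium, which lacks the niche factors; they were 5 months old in culture. Its control received the lentiviral backbone alone (EV) and stayed in full medium, which holds Wnt3a, R-spondin, Noggin and EGF, for 5 months. The third group is EV organoids after 12 months (line 1) or 14 months (line 3) in full medium, and the fourth is EV organoids after 2 months in full medium. Each group has 2 libraries, from organoid lines 1 and 3, the mice were males about 40 days old, and all libraries are labelled with a last culture step of 3 weeks. The BrafV600E comparison changes oncogene and medium together, so their effects cannot be told apart, and Wnt3a and R-spondin differ between its sides. The line 1 BrafV600E library names line 3 in another label field, and the 14-month library is tagged 2 months in another; titles were followed, and every value given by line or time rests on them. Expression was not measured in these files, so the tissue label could not be checked with marker genes.

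Wnt ligands bind Frizzled and Lrp receptors, Dishevelled is recruited, and the destruction complex built on Axin and Apc stops degrading beta-catenin, which then drives TCF target genes. In the colon this pathway maintains the stem cells of the crypt base. The members act against it at successive levels. Notum is a secreted enzyme that strips the lipid from Wnt proteins. Apcdd1 is a membrane glycoprotein that binds Wnt and Lrp5. Shisa3 belongs to a family of membrane proteins, some of which hold Frizzled receptors in the endoplasmic reticulum. The Dact, Nkd and Cxxc4 proteins bind Dishevelled, and Axin2 is a scaffold of the destruction complex whose gene is itself a Wnt target. CpG methylation at a gene's start is commonly associated with silencing, but no expression was used here.

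RefSeq promoter windows of GRCm38.p6, 300 bases from 250 before to 50 after the annotated start, were given for 8 of the 10 genes; Apcdd1 and Notum had no entry. A listed tile reached this window in Shisa3, Nkd2 and Dact2. The 250 bases before the start of these genes are shown because the differences described first lie around their starts. Listed tiles overlap the printed bases in Shisa3 alone. In Nkd2 and Dact2 the tile that reaches the window covers only bases after the start. Capitals mark each CpG, the dinucleotide whose methylation is measured. The sequences run 5′ to 3′ along the gene's strand.
Shisa3 upstream bases (chr5:67607633-67607882, + strand): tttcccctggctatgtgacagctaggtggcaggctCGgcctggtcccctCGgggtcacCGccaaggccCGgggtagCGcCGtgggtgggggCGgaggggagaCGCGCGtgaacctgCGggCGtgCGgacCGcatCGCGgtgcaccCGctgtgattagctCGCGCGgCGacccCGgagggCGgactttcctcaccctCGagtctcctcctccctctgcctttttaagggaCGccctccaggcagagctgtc
Nkd2 upstream bases (chr13:73847632-73847881, - strand): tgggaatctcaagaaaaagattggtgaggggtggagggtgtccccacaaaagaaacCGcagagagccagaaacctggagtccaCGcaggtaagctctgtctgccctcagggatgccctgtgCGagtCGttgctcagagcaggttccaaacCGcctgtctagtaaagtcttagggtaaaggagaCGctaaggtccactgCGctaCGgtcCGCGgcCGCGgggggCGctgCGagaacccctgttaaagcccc
Dact2 upstream bases (chr17:14203832-14204081, - strand): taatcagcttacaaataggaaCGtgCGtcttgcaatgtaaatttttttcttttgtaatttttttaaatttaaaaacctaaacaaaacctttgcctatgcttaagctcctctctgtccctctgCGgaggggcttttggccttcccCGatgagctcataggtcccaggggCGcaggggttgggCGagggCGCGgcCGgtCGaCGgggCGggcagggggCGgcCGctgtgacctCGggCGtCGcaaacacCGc

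The printed stretch held 25 CpGs in Shisa3, 14 in Nkd2 and 18 in Dact2. CCGG, the palindromic site of the enzyme MspI that is usual for this assay, occurred 2 times in the whole 300-base window of Shisa3, 2 times in Nkd2 and 2 times in Dact2. It was found in 7 of the 8 windows of members and in 52.8% of all 32851 windows in the table. Dact1 and Axin2 had the most CCGG, 7 each, and Nkd1 had 0 with only 6 CpGs against a median of 7 over all windows. The windows of Dact1 and Axin2 held no listed tile.

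Every listed tile differed by at least 20 percentage points with the authors' q-value at most 0.01, and tiles outside these limits were not used here. An unlisted tile may therefore have been unchanged or unread. Each table sets 1 library against 1 library with no read counts, so depth is unknown, q-values describe those libraries alone, and the 2 lines are the only replicates. A gain of a given size also bounds the levels: a tile that gained 90.0 points had at most 10.0% methylation in its control.

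With BrafV600E in Base medium, Shisa3 gained methylation in both lines, Nkd2 gained in line 1, and Axin2 lost at all 4 of its listed tiles in line 1. Notum and Nkd1 had gains and losses in each line, at shared tiles mostly in opposite directions. At least 1 gained tile was listed for 5 of the 10 members in line 1 (17.8% of all protein-coding genes) and for 7 in line 3 (20.9%). At least 1 lost tile was listed for 4 members in line 1 (10.5% of all genes) and 7 in line 3 (20.3%). The members held 12 gained and 9 lost tiles in line 1 and 16 gained and 10 lost tiles in line 3. Over all listed tiles 10332 were gained and 4973 lost in line 1, and 12089 gained and 17860 lost in line 3. In line 3 losses outnumbered gains over all tiles but not in the members, counted by single tiles. With tiles within 500 bp merged, the members held 7 gained and 9 lost regions in line 3, so the contrast depends on counting neighbouring tiles singly. The members' median gain was 42.6 points in line 1 and 35.0 in line 3 per the authors' deposited tables, beside 42.8 and 44.1 over all listed tiles.

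After long culture of EV organoids, Shisa3 and Nkd2 gained in line 3, Apcdd1 gained in both lines, and Dact2 lost in both. At least 1 gained tile was listed for 2 members in line 1 (8.54% of all protein-coding genes) and 4 in line 3 (20.3%), and at least 1 lost tile for 2 members in line 1 (10.9%) and 4 in line 3 (12.2%). Line 1 held only 4 listed tiles in the members, 2 gained and 2 lost, beside 3380 gained and 4883 lost over all tiles. Line 3 held 18 gained and 5 lost, beside 15485 and 6039 over all tiles. With tiles within 500 bp merged, line 3 held 5 gained and 5 lost regions in the members. Each of its 8 listed members went 1 way only in the 2 kb window, 4 up and 4 down. The share of all genes going 1 way only in a single line was not counted, so this split has no background beside it. Every member had a listed tile in at least 1 comparison, as did 44.9% of all protein-coding genes. The median member held 3.5 distinct tiles in a median window of 23002 bp, against 0 tiles in 21149 bp over all genes. Read coverage of CpG-rich sequence was not available to set beside these shares, and its part in them was not tested.

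**Figure D1:**
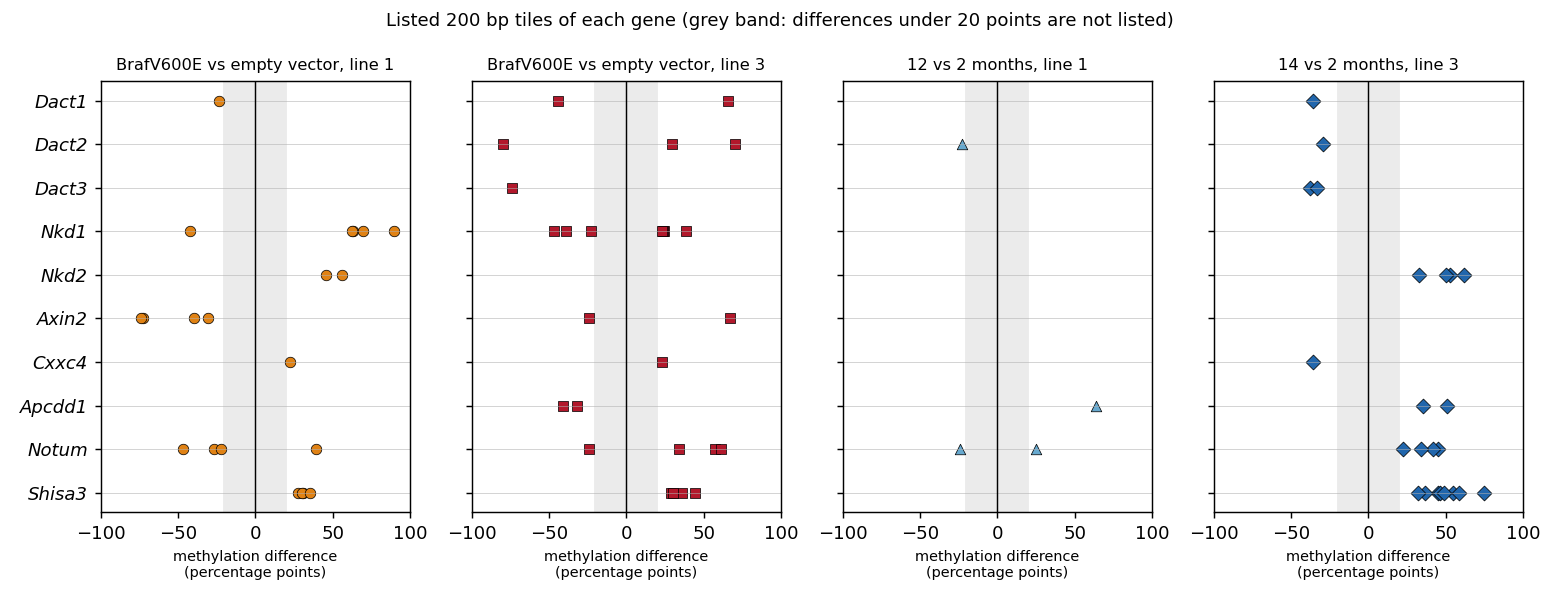
Methylation difference in percentage points (x axis) of each listed 200 bp tile of the 10 genes (y axis), with 1 panel for each of the 4 within-line comparisons and 1 symbol per tile. All symbols of Shisa3 and Nkd2 lie on the side of gains, those of Dact3 on the side of losses, and line 1 shows only 4 tiles after long culture.

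Gains alone were listed in both lines with BrafV600E for Cxxc4 and Shisa3 (4.31% of all protein-coding genes), and losses alone in both lines for 0 members (1.69%). After long culture Apcdd1 had gains alone in both lines (3.03% of all genes) and Dact2 losses alone (1.16%). Of these 4 genes, Shisa3 and Dact2 rested on tiles listed in both lines, whereas Cxxc4 and Apcdd1 had different tiles in each line.

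Among the secreted and membrane regulators, Shisa3 (chromosome 5, 67607883 to 67613987, + strand) was the member with the most listed differences, 16 gains and 0 losses over 9 distinct tiles, and 8 of these tiles lay within 1 kb of its start. With BrafV600E its listed gains in the authors' deposited tables were 27.9, 30.6, 29.9 and 35.1 points in line 1 and 28.6, 36.3, 44.3 and 30.4 points in line 3. The same stretch gained in line 3 after 14 months, by between 32.2 and 74.7 points over 8 tiles per the authors' deposited table, while 0 tiles were listed in line 1 after 12 months. Gains therefore appeared in 3 of the 4 comparisons and none was set against a loss.

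Shisa3 gains formed a run across the start. The tile from 67607601 to 67607800, which overlaps the upstream bases printed above, gained 30.6 and 36.3 points with BrafV600E in lines 1 and 3 and 36.7 points after 14 months in the authors' deposited tables. The tile from 67607801 to 67608000, which holds the start, was listed after 14 months alone, at 58.7 points in the authors' deposited table. The largest gain, 74.7 points for the tile from 67608401 to 67608600, bounds the 2-month level there at 25.3% or less in the authors' deposited table. In line 3 the listed gain after 14 months was larger than that with BrafV600E at each of the 4 tiles listed in both. The gap was small at the tiles from 67607601 (36.7 against 36.3 points) and 67608001 (46.0 against 44.3 points). It was largest at the tile from 67607201 (54.8 against 28.6 points) per the authors' deposited tables. The comparisons have different EV controls, kept in culture for different times, and depth is unknown. The sizes therefore cannot be ranked between long culture and BrafV600E.

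**Figure D2:**
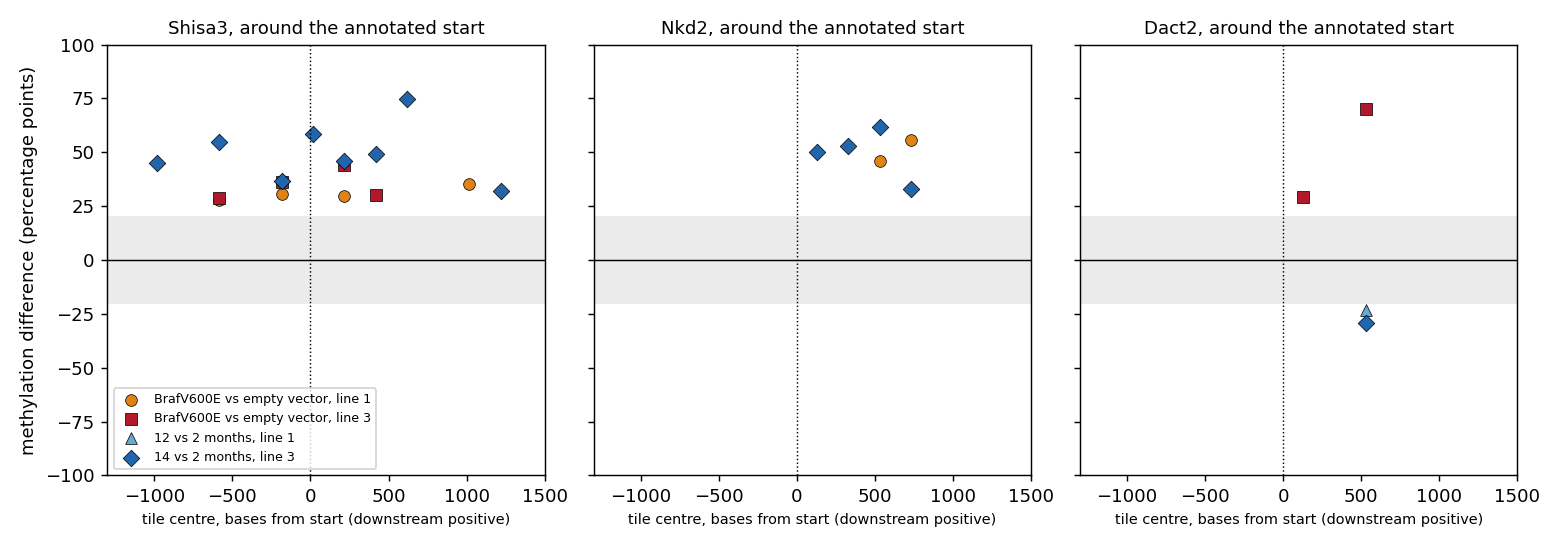
Methylation difference in percentage points (y axis) of listed tiles by distance of the tile centre from the annotated start in bases (x axis), for Shisa3, Nkd2 and Dact2, with colour and symbol giving the comparison and the grey band the unlisted range under 20 points. Shisa3 and Nkd2 show gains alone; in Dact2 the tile centred 530 bases after the start gained 70.2 points with BrafV600E in line 3 and lost 23.1 and 29.4 points after long culture.

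Notum (chromosome 11, 120653788 to 120661193) was the only member listed in all 4 comparisons (8.87% of all protein-coding genes were), with 9 gains and 5 losses over 7 tiles. Its tiles gathered at the end with the higher coordinate, and the strand was not given in the table used. The tile from 120661001 to 120661200, at that end, lost 26.7 points with BrafV600E in line 1 (listed as -26.7) and gained 57.3 points in line 3 in the authors' deposited tables. The same tile gained 25.1 points after 12 months in line 1 and 33.8 points after 14 months in line 3 per the authors' deposited tables. The lines were thus opposed with BrafV600E in Base medium and alike in direction after long culture at this tile.

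The next Notum tile, from 120661201 to 120661400, was again opposed between the lines with BrafV600E, at -22.4 points in line 1 and 61.3 points in line 3 per the authors' deposited tables. After 12 months it stood at -24.4 points in line 1 per the authors' deposited table and was unlisted in line 3. Further inside the gene, the tile from 120659801 to 120660000 lost in both lines with BrafV600E, at -46.7 and -24.1 points, and gained 45.2 points after 14 months in the authors' deposited tables. Its losses have q-values of 0.0087 in line 1 and 0.0021 in line 3, so neither is kept at a q-value under 0.001. The tile from 120655801 to 120656000, nearest the other end, gained 39.5 points with BrafV600E in line 1 alone in the authors' deposited table. The mean over Notum's tiles, -14.1 and 32.1 points with BrafV600E in lines 1 and 3 per the authors' deposited tables, had opposite signs in the lines and describes no single stretch.

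Apcdd1 (chromosome 18, 62922327 to 62953815) carried its 3 tiles within 2 kb of the end with the lower coordinate. The tile from 62921801 to 62922000, just outside the span, gained 63.7 points after 12 months in line 1 and stood at -40.7 points with BrafV600E in line 3 per the authors' deposited tables. The tile from 62923001 to 62923200 gained 50.7 points after 14 months and stood at -31.6 points with BrafV600E, both in line 3 per the authors' deposited tables. Its remaining tile, from 62922401, gained 35.4 points after 14 months in the authors' deposited table. Apcdd1 gains were thus listed after long culture, in both lines, and its losses with BrafV600E in line 3, with 0 tiles listed for BrafV600E in line 1.

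Among the Dishevelled binders, Nkd2 (chromosome 13, 73818534 to 73847631, - strand) had 6 gains and 0 losses, all within 1 kb after its start. With BrafV600E in line 1 the tiles from 73846801 and 73847001 gained 55.9 and 45.8 points in the authors' deposited table. After 14 months in line 3 the same tiles gained 32.9 and 61.7 points, and those from 73847201 and 73847401, nearer the start, gained 52.9 and 50.3 points in the authors' deposited table. The other line of each comparison listed 0 tiles in Nkd2, so neither result has a second line behind it. The tile from 73847401 to 73847600 reaches the promoter window whose upstream part is printed above.

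Nkd1 (chromosome 8, 88521342 to 88594887, + strand), the second naked cuticle gene, was listed with BrafV600E alone, with 8 gains and 4 losses. Its RefSeq span begins upstream of the start used for the promoter window, and at that first end line 3 gained 38.5, 24.6, 23.9 and 23.0 points over 4 adjacent tiles from 88521201 to 88522000 per the authors' deposited table. The adjoining tile from 88522001, in line 1, stood at -41.9 points in the authors' deposited table. Inside the gene, the tile from 88538201 gained 63.3 points in line 1 and stood at -38.8 points in line 3, and its neighbour from 88538401 gained 62.7 points and stood at -22.9 points in the authors' deposited tables. Near the far end the tiles from 88591601 and 88591801 gained 69.7 and 90.0 points in line 1, and the tile from 88590801 stood at -46.7 points in line 3 per the authors' deposited tables. The gain of 90.0 points is the largest of any member, but its q-value of 0.00432 is among the weaker ones. In line 1 Nkd1 gained inside the gene and lost at the first end, and line 3 did the reverse, though the lines shared only the tiles from 88538201 and 88538401.

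**Figure D3:**
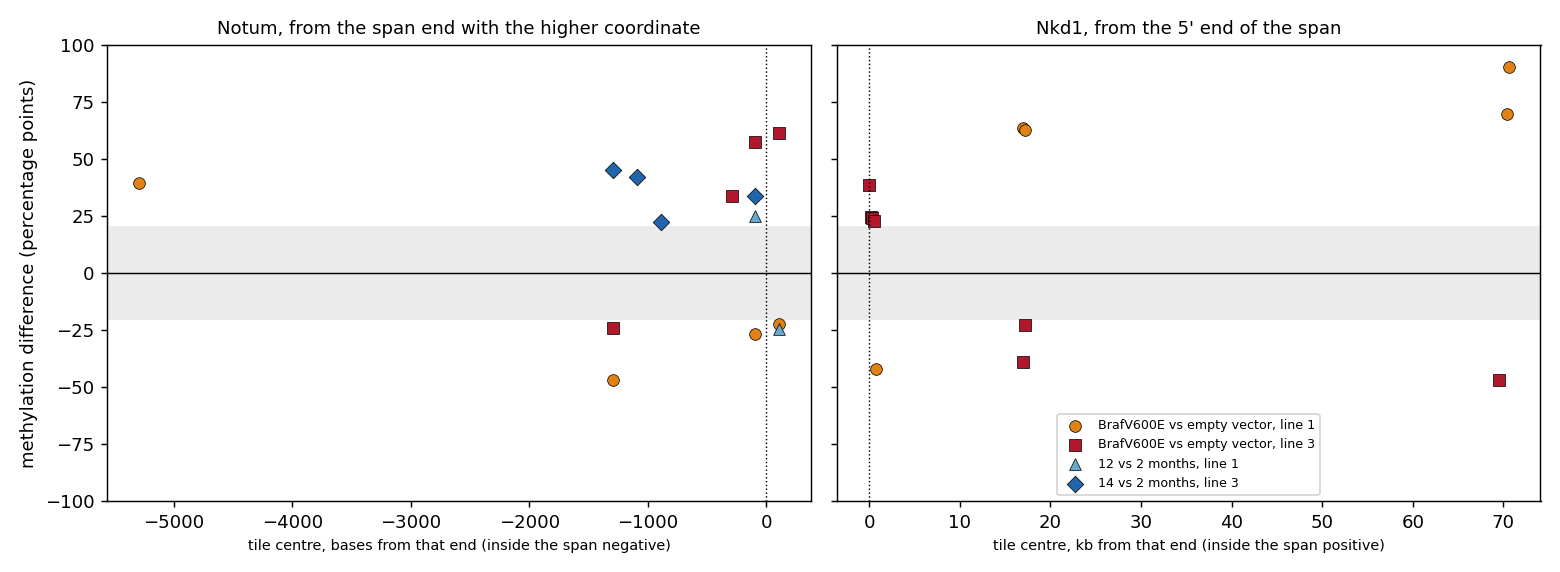
Methylation difference in percentage points (y axis) of listed tiles of Notum (x axis in bases from the span end with the higher coordinate) and Nkd1 (x axis in kb from the 5′ end of the span), with colour and symbol giving the comparison. With BrafV600E, lines 1 and 3 lie on opposite sides of 0 at the end of Notum (-26.7 against 57.3 points) and inside Nkd1 (63.3 against -38.8 points), and Nkd1 has no symbol for long culture.

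The 3 Dact genes differed in direction among tiles near their starts. In Dact1 (chromosome 12, 71309884 to 71320107, + strand) the tile from 71310601 to 71310800 gained 65.8 points with BrafV600E in line 3 and stood at -35.6 points after 14 months in the same line per the authors' deposited tables. These bound its level at 35.6% or more in the 2-month EV library and at 34.2% or less in the 5-month EV library in line 3, bounds that carry no error because depth is unknown. Line 1 listed a single Dact1 tile, from 71310001, at -23.5 points with BrafV600E, and a tile beyond the far end stood at -44.0 points in line 3 per the authors' deposited tables.

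Dact2 (chromosome 17, 14195230 to 14204327, - strand) had the only loss tile listed in both lines after long culture. The tile from 14203201 to 14203400 stood at -23.1 points after 12 months in line 1 and -29.4 points after 14 months in line 3, and gained 70.2 points with BrafV600E in line 3 per the authors' deposited tables. Its q-value of 0.00184 in line 1 exceeds 0.001, so this agreement rests on the authors' looser limit. The tile from 14203601, next to the start, gained 29.4 points with BrafV600E in line 3, while the tile from 14196201 near the far end stood at -80.0 points in the authors' deposited table. Both tiles near the start also lie within the long non-coding RNA gene Gm34510, and the differences cannot be assigned to either gene. Line 1 listed 0 Dact2 tiles with BrafV600E.

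Dact3 (chromosome 7, 16875317 to 16887301, + strand) was listed in line 3 alone and lost at each of its 3 tiles. With BrafV600E the tile from 16876201 stood at -73.8 points, and after 14 months the adjacent tile from 16876001 stood at -37.7 points and a tile beyond the far end at -33.3 points in the authors' deposited tables. Cxxc4 (chromosome 3, 134236144 to 134262163, + strand), a CXXC zinc finger protein also called Idax, had small gains with BrafV600E: 22.3 points at the tile from 134235601 in line 1 and 22.9 points at the tile from 134237001 in line 3 per the authors' deposited tables. The first of these tiles stood at -35.9 points after 14 months in line 3 per the authors' deposited table. The Cxxc4 gains lie close to the listing limit, and that of line 1 (q-value 0.00762) is lost at a q-value under 0.001.

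Axin2 (chromosome 11, 108917828 to 108950783, + strand), the destruction complex scaffold, was listed with BrafV600E alone, and its 6 tiles lay 14652 to 21852 bases after the start and not near it. Line 1 lost at 4 tiles, with -72.7, -73.9 and -39.6 points over the tiles from 108935001, 108935401 and 108935601 and -30.3 points at the tile from 108941601 per the authors' deposited table. Line 3 gained 66.7 points at the tile from 108936601 and stood at -24.2 points at the tile from 108942201 per the authors' deposited table. At a q-value under 0.001 the losses of -72.7 (q-value 0.00925) and -30.3 points (0.006) in line 1 drop out. So does the loss of -24.2 points (0.00445) in line 3. The lines shared 0 tiles, so line 1 and line 3 cannot be compared at the same position in Axin2.

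Of the 50 distinct tiles, 16 were listed in 2 or more comparisons. At 6 of them, 4 in Shisa3 and 2 in Nkd2, every listed difference was a gain; at the other 10 the directions were opposed, and at 0 tiles was every difference a loss. With BrafV600E the 2 lines shared 8 member tiles, of which 4 had the same direction (3 gains in Shisa3 and 1 loss in Notum) and 4 the opposite (2 each in Notum and Nkd1). The shared loss in Notum is not kept in either line at a q-value under 0.001. Over all tiles listed in both lines with BrafV600E, 73.9% of 5934 had the same direction. After long culture the lines shared 2 member tiles, both in the same direction, beside 68.5% of 3220 over all tiles. Between BrafV600E and long culture in line 3, which share no library, 5 of 9 member tiles had the same direction and 4 the opposite, in Dact1, Dact2, Apcdd1 and Notum; over all tiles 51.9% of 6964 had the same direction.

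**Figure D4:**
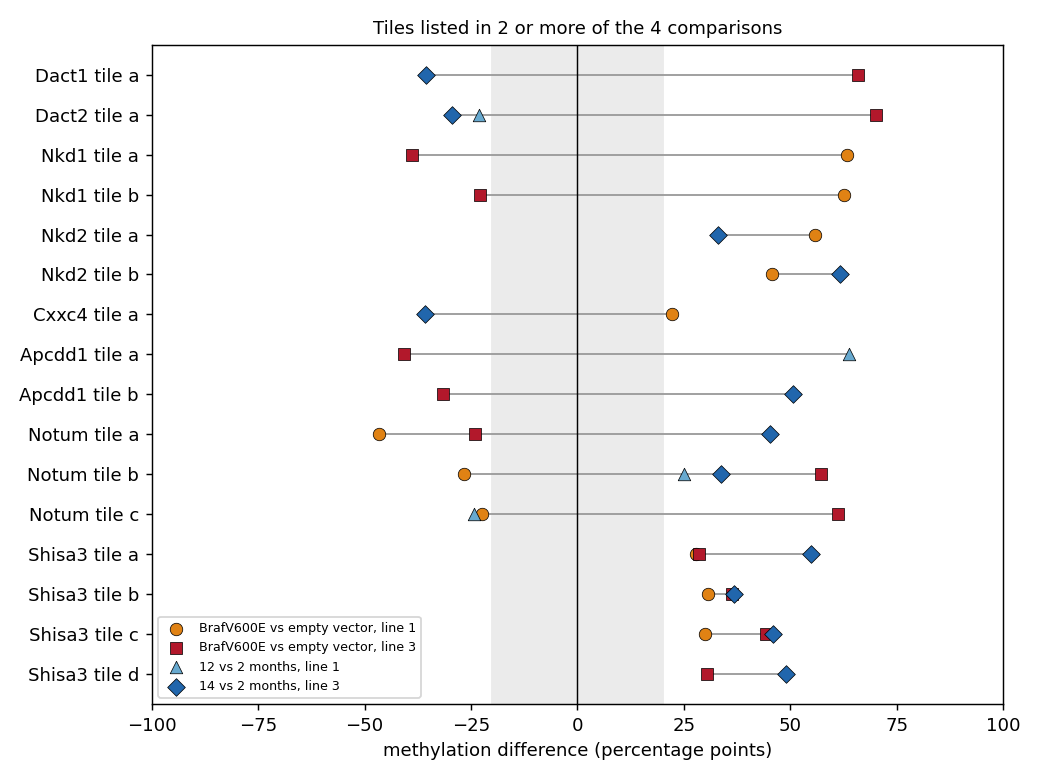
Methylation difference in percentage points (x axis) at the 16 member tiles listed in 2 or more of the 4 comparisons (y axis, tiles of a gene lettered by rising coordinate), with colour and symbol giving the comparison and a grey line joining the values of a tile. The 6 tiles of Nkd2 and Shisa3 stay on the side of gains; the lines of the other 10 cross 0.

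Gains of the 8 members with an annotated start lay within 1 kb of it in 26 of 36 cases (72.2%) and losses in 7 of 19 (36.8%). Over all protein-coding genes with a single start in the promoter table the shares were 48.3% of gains and 24.4% of losses. Shisa3 alone holds 15 of the 26 gains, and without it the members' share of gains was 11 of 20 (55%), an alternative added after seeing the data. A tile listed in several comparisons counts once in each. The 4 Nkd1 gains of line 3 at the first end of its span count as outside 1 kb, since the start used lies further inside. Tiles of a gene are neighbours and not independent, and no test was made.

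Other Wnt pathway genes were taken from a list of 58 symbols by role, of which 57 matched. The roles were destruction complex and core components, nuclear partners of beta-catenin, the R-spondin axis, relatives of the members and intestinal target genes. This list, like the members, was chosen with earlier results of these data known. With BrafV600E, at least 1 gain was listed for 21 of the 57 in line 1 (17.8% of all protein-coding genes) and 28 in line 3 (20.9%), and at least 1 loss for 14 (10.5%) and 22 (20.3%). After long culture at least 1 gain was listed for 10 in line 1 (8.54% of all genes) and 22 in line 3 (20.3%), and at least 1 loss for 9 (10.9%) and 12 (12.2%). Gains alone in both lines were listed for 6 of the 57 with BrafV600E (4.31% of all genes) and for 6 after long culture (3.03%), and losses alone in both lines for 2 (1.69%) and 4 (1.16%).

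With BrafV600E the genes alike in both lines were Sox17, Sox7, Gsk3b, Fbxw11, Lgr5 and Ctnnbip1 with gains and Csnk1e and Znrf3 with losses. Gsk3b, a destruction complex kinase, gained means of 44.7 and 73.1 points over 2 tiles in each of lines 1 and 3, and Lgr5, an R-spondin receptor of colon stem cells, 50.7 and 81.2 points over 2 tiles and 1 tile in the authors' deposited tables. Znrf3, a ligase that removes Frizzled from the membrane, stood at -52.1 and -23.6 points with 1 tile in each line per the authors' deposited tables. Ctnnbip1, which keeps beta-catenin from TCF, gained 21.7 and 22.0 points at a single tile in each line, per the authors' deposited tables. After long culture, Shisa6, a relative of Shisa3, gained means of 37.7 points over 1 tile and 60.4 points over 8 tiles in the authors' deposited tables. Axin1, the relative of Axin2, stood at -30.8 and -34.4 points with 1 tile in each line, per the authors' deposited tables. Sox17, Sox7, Pygo1, Lgr6 and Amer2 also gained in both lines, and Tle2 lost. Naming stopped at 8 genes, so Axin1 and Tle2 are not all of the 4 genes with losses alone in both lines.

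Notum was compared with the 1942 other genes listed in all 4 comparisons by the Euclidean distance of the 4 mean differences. The nearest were Mctp1, at 13.6 points, and Akap6, at 15.2 points, a likeness over 4 values from the same 2 lines. Notum's means mix gains and losses: in line 1 after long culture 25.1 and -24.4 points average to 0.4 in the authors' deposited table. The likeness is therefore one of means and not of any stretch.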

How the data were processed

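Reduced representation bisulfite libraries were sequenced as 50 bp single-end reads, per the labels' protocols. The submitters' processing notes name methylKit 1.7.4, Bismark 0.14.3, Trim Galore 0.4.4, FastQC 0.11.7 and the build GRCm38 (mm10), and the coverage minimum is not given in the sources read. The authors deposited, per the file headers, a methylation difference (in percent methylation) with its p-value and q-value for each 200 bp tile, first library minus second, in 8 tables of gains and losses.

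Here tiles were assigned to the RefSeq span of GRCm38.p6 plus 2 kb in Python 3.11.15 with pandas 2.3.3, on overlap of at least 1 base; the step was tested on simulated data. Starts and strands came from the RefSeq promoter table. The background is the share of all 21896 protein-coding genes, counted in the same window. The tables give no value per library and leave out tiles under the limits, so no test over the 2 lines was made. All members were named, with tiles listed in 2 or more comparisons, the largest difference per comparison, and tiles within 1 kb of a start. Of the Wnt list, up to 8 genes per comparison with 1 direction in both lines were named. Members and lists were chosen with earlier results of these data known. Alternatives were windows of 0, 1 and 5 kb, differences of at least 40 points, q-values under 0.001, tiles merged within 500 bp, and leaving out either line.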

Additional observations from a re-analysis of the deposited data

Results flagged for a closer look

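With BrafV600E, 4 tiles of the members were listed in opposite directions in lines 1 and 3; each line has 1 library on each side, so the difference between lines was not tested. In Nkd1 the tile from 88538201 differed between the lines by -102.1 points (line 3 minus line 1; 63.3 in line 1 and -38.8 in line 3 per the authors' deposited tables). The neighbouring Nkd1 tile from 88538401 differed by -85.6 points. In Notum the tile from 120661001 differed by 84.0 points and the tile from 120661201 by 83.7 points, in the other direction from Nkd1. The line 1 BrafV600E library is the one whose label fields disagree about the line.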

How the results depend on the processing

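Depth is unknown, so what it limits could not be set. Windows of 1 and 5 kb left each count of tiles or members within 1.5 times, but at 5 kb Dact3 after long culture in line 3 moved from -35.5 to -14.5 points and 5 members, not 4, had a gain there. On the gene span alone Dact1 with BrafV600E in line 3 moved from 10.9 to 65.8 points. The gene span alone also left 1 member alike in both lines with BrafV600E (Shisa3). After long culture 2 members stayed alike, but Notum took the place of Apcdd1, whose line 1 tile lies outside the span. Line 1 after long culture then held 1 gained and 1 lost tile, in 1 member each, and line 3 kept 3 lost tiles. At 40 points or more, gained tiles with BrafV600E were 6 in each line and lost tiles 4 and 5, and 2 members had a gain in line 1. After long culture 1 gained tile in 1 member and 0 lost tiles were left in line 1, and 0 lost tiles in 0 members in line 3; members alike in both lines fell to 0 with BrafV600E and 1 after long culture. At q under 0.001 the alike members were 1 and 1, and line 1 after long culture kept 1 lost tile in 1 member. Merged tiles gave 7 gained and 6 lost regions with BrafV600E in line 1, and 7 gained and 9 lost in line 3. After long culture they gave 5 gained and 5 lost regions in line 3. Line 1 after long culture then held 2 gained regions and 1 lost region, the latter in 1 member. Merged gains no longer outnumbered merged losses in either comparison of line 3. A single line gave 4 to 5 members of 1 direction with BrafV600E and 2 to 8 after long culture, against 2 and 2 in both. For a single line the share of all genes with 1 direction was not counted. Mean differences turned for Dact2 with BrafV600E in line 3 (6.6 points as deposited, -4.9 at 40 points or more, -15.1 merged) and for Nkd1 there (0.2, -46.7 and -16.7), since both genes hold gains and losses. No paired analysis was possible because the tables hold only differences already taken within a line and past the authors' limits, with no value per library to fit with or without the line as a block.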

Other observations

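Over all listed tiles, direction was shared more often between lines than within a line when BrafV600E was set against long culture. Tiles listed with BrafV600E in line 1 and after long culture in line 3 had the same direction in 80.4% of 5432 cases, and with BrafV600E in line 3 and long culture in line 1 in 71.2% of 3268. Within line 1 the share was 48.9% of 2384 and within line 3 it was 51.9% of 6964. In the same pairs 5 of 8 and 1 of 4 of the members' shared tiles had the same direction between lines, and 1 of 2 and 5 of 9 within them. These tiles are few and some are neighbours in a gene, so no order can be read in the members. No library belongs to more than 1 of these comparisons. Label fields of 2 libraries disagree about the line or the culture time, and whether any label was crossed was not tested; if one was, the values given by line, and those at which the lines were opposed, would not set the libraries against each other that the titles name.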
